A study of Homo sapiens with 51 samples.

Results

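The change that M2rtTA made to the effect of OVOL2 was examined in KP4, an established human pancreatic ductal adenocarcinoma cell line. It was followed in the 12 transduced KP4 libraries among the 51 libraries of the series, which covers 5 pancreatic cancer lines untreated and 3 of them after lentiviral overexpression of OVOL2. The 12 were chosen by their labels alone, in 4 groups of 3 libraries: mCherry, OVOL2, mCherry + M2rtTA and OVOL2 + M2rtTA. All 12 came from cells that received lentivirus at a multiplicity of infection of 2 in 8 µg/ml polybrene, then 2.5 µg/ml puromycin and 0.6 µg/ml doxycycline from the next day, and were harvested after 6 days. By that protocol doxycycline was present in every transduced group, with or without M2rtTA, and cells of the M2rtTA groups received the FUW-M2rtTA virus together with the one for the open reading frame. mCherry, a fluorescent protein, was the control open reading frame in both arms. The promoter that drives the open reading frames is not given in the sources used here. The 3 libraries of a group are replicate transductions of 1 cell line, so p-values measure the spread between those and not between tumours.

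OVOL2 is a zinc-finger transcription factor, mostly a repressor, that holds epithelial cells in their state and represses drivers of the epithelial-mesenchymal transition such as ZEB1. M2rtTA is a reverse tetracycline transactivator: in the presence of doxycycline it binds tetracycline operators and switches on the promoter beside them. The tested quantity was the difference of the effects, that is (OVOL2 + M2rtTA minus mCherry + M2rtTA) minus (OVOL2 minus mCherry) on the log2 scale, so a change that M2rtTA makes in mCherry cells as well is subtracted. Levels are given as CPM (counts per library of equal size, after TMM scaling). Adjusted p-values are from edgeR's quasi-likelihood test with Benjamini-Hochberg adjustment over all 13662 genes tested, with 0.05 as the threshold for a call. The fit also held the 3 untreated KP4 libraries, which helped to set its filter, scaling and estimate of the spread. A gene is called gained where the effect was called with M2rtTA only, strengthened or weakened where both effects were called in 1 direction and the one with M2rtTA was larger or smaller, lost where the effect was called without M2rtTA only, and opposite where both were called in opposite directions. In each of these classes the difference itself also passed the threshold. A gene is called kept where both effects were called in the same direction, the difference was not, and the 95% interval of the difference lay within 1 on the log2 scale either way.

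The 12 libraries held 3727440 to 6503286 counts, with 22.9% to 26.7% of all counts from mitochondrial genes across the KP4 libraries. The summed level of 9 ductal markers was 617 to 1288 CPM, with none of them at 0 in any group, and that of 9 acinar and endocrine markers was 0 to 2.06 CPM. The 11 blood and immune markers summed to 12.6 to 19.9 CPM in OVOL2 + M2rtTA libraries and to 2.91 to 9.50 CPM in the other transduced groups, with the T cell marker CD3D at 0 in all 4. HBA1, a haemoglobin chain, made up much of that sum, at 7.55 ± 0.879 CPM (n = 3) in OVOL2 + M2rtTA libraries and 1.30 to 2.18 CPM on average in the other transduced groups, and whether this shift has a part in the results was not tested. Single libraries held very high counts of a few genes: FAM131A took 4.38% of the counts of mCherry + M2rtTA replicate 1. In such bulk libraries a smaller number of cells and less RNA per cell cannot be told apart.

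OVOL2 itself was low in all 12 libraries. Its counts were 12, 7 and 0 with mCherry, 10, 7 and 4 with OVOL2, 2, 0 and 6 with mCherry + M2rtTA and 13, 62 and 9 with OVOL2 + M2rtTA. Without M2rtTA the OVOL2 libraries overlapped the mCherry libraries, and with M2rtTA all 3 OVOL2 libraries lay above the mCherry ones. The effect on OVOL2 was −0.02 (SE 0.87, adjusted p = 0.994) without M2rtTA and 3.08 (SE 0.92, adjusted p = 0.0272) with it. The difference of 3.10 (SE 1.32) had an adjusted p of 0.282 and did not pass, and without OVOL2 + M2rtTA replicate 2, which held 62 of the counts, it was 1.93. Whether counting at the 3′ end of transcripts captures the viral open reading frame is not given in the sources used here.

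The OVOL2 effect was called for more genes with M2rtTA than without it. Without it 932 genes were called (6.82% of those tested, 446 higher and 486 lower), and with it 3057 (22.4%, 1354 higher and 1703 lower). The difference between the effects was called for 195 genes (1.43%), of which 57 were positive and 138 negative. Of the 195, 144 were gained (1.05% of genes tested, 33 rising and 111 falling), 27 strengthened (0.198%, 9 rising and 18 falling), 17 lost (0.124%), 4 weakened (0.0293%) and 3 opposite (0.022%). A further 340 genes (2.49%) were kept, 168 rising and 172 falling. For 2257 genes the effect was called with M2rtTA only but the difference did not pass, and for 259 (1.9%) it was called without M2rtTA only, so these genes were not shown to differ between the arms. The remaining 10329 genes (75.6%) were called in none of the 3 tests. Another 282 genes changed in the same direction in both arms with an interval too wide to be called kept. Leaving out 1 library at a time gave 78 to 177 calls of the difference, the fewest without mCherry replicate 3, and 58 of the 195 genes were called in each of those 12 fits, with a median of 5 fits a gene.

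**Figure D1:**
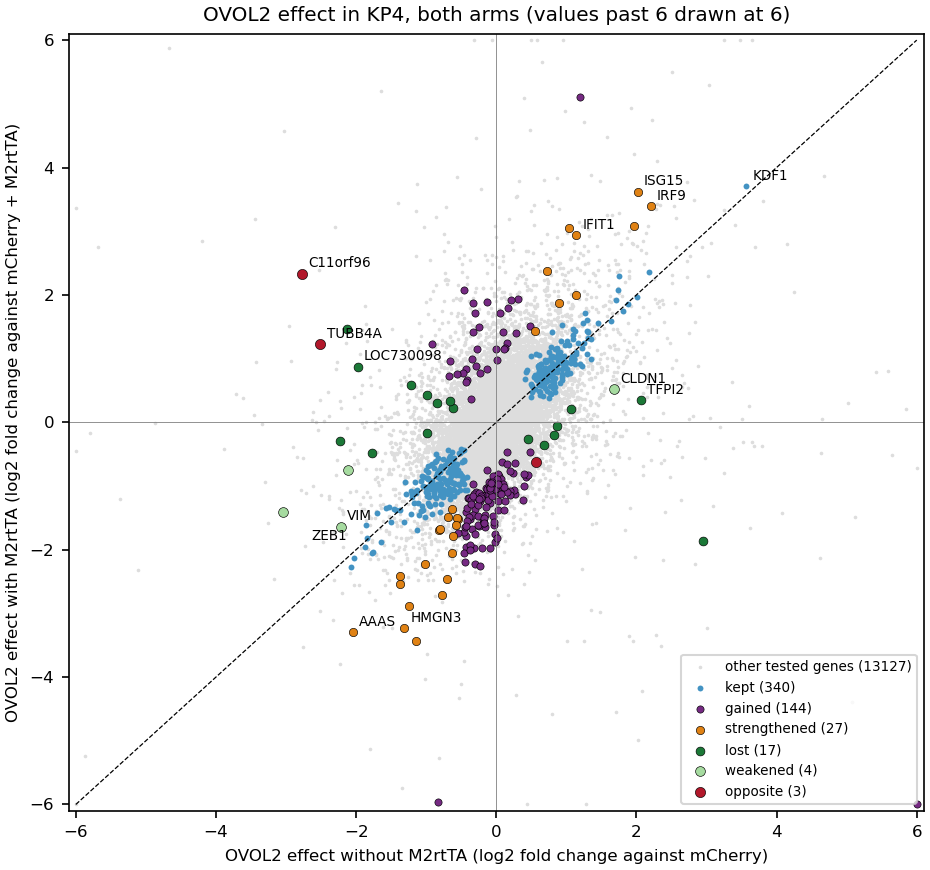
OVOL2 effect in KP4 on the log2 scale without M2rtTA (x axis) and with it (y axis), 1 point per tested gene; colours give the class, the dashed line marks equal effects, and points past 6 are drawn at 6. Most of the 144 gained genes, 111, lie below 0 on the y axis, and the 340 kept genes lie along the line, which the rule for that class sets.

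For most of the 195 genes the levels differed between the 2 OVOL2 groups more than between the 2 mCherry groups. M2rtTA in mCherry cells gave 0 calls with edgeR, 919 genes at an unadjusted p under 0.05 and 15 calls with DESeq2, whereas OVOL2 + M2rtTA against OVOL2 gave 1144 calls (8.37%, 431 higher and 713 lower, the latter 5.22%). Of the 195 genes, 191 were called between the OVOL2 groups and 0 between the mCherry groups, although these contrasts are parts of the difference and so are a description. Their median absolute change was 1.04 between the OVOL2 groups and 0.178 between the mCherry groups, where the values over all tested genes were 0.323 and 0.201. In 87.7% of the 195 genes all 3 OVOL2 + M2rtTA libraries lay outside the range of the other 9 (42 above and 129 below), as they did in 2050 of the 13662 tested genes.

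**Figure D2:**
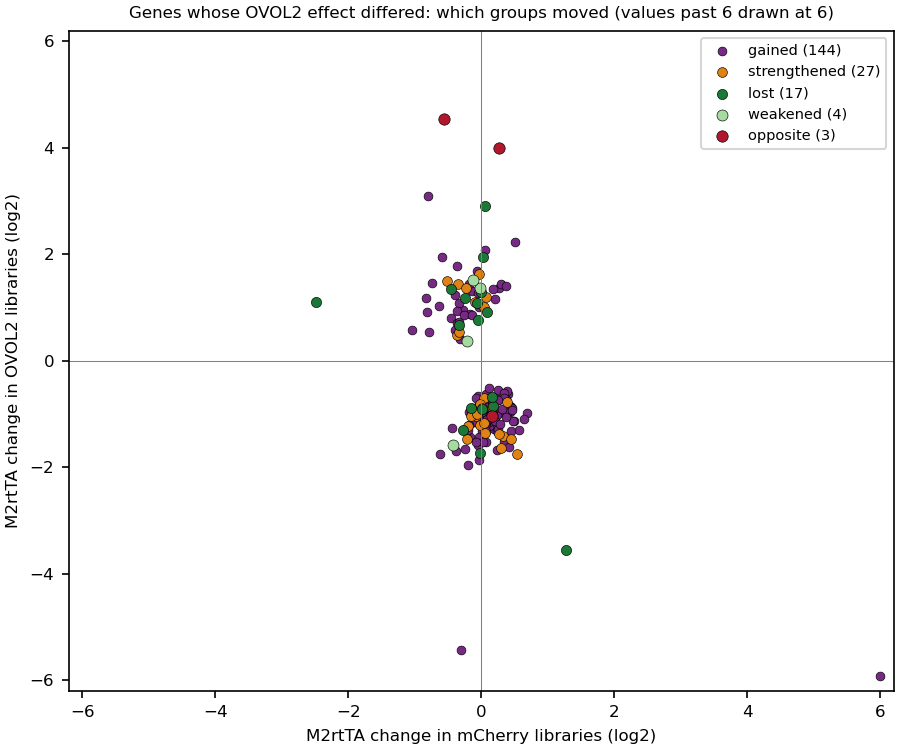
M2rtTA change in mCherry libraries (x axis) and in OVOL2 libraries (y axis) on the log2 scale for the 195 genes whose OVOL2 effect differed; points past 6 are drawn at 6. Most points lie near 0 on the x axis and away from 0 on the y axis, with a median absolute change of 0.178 and 1.04.

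Of the 111 genes that gained a fall, several code for parts of ribosomes and of the protein-folding machinery. MRPL41, a protein of the large mitochondrial ribosomal subunit, stood at 106, 103 and 88.4 CPM with mCherry, 106, 94.9 and 99.2 with OVOL2, 93.5, 95.5 and 101 with mCherry + M2rtTA and 31.5, 22.3 and 28.7 with OVOL2 + M2rtTA. The OVOL2 + M2rtTA libraries did not overlap the other 9, which lay together. Its effect was 0.01 (SE 0.13) without M2rtTA and −1.81 (SE 0.14) with it, a difference of −1.83 (SE 0.19, adjusted p = 0.000950). RUVBL2, an ATPase of chromatin remodelling and small nucleolar RNA-protein assembly complexes, was at 108, 129 and 114 CPM with mCherry, 86.3, 97.8 and 92.03 with OVOL2, 117, 122 and 114 with mCherry + M2rtTA and 38.5, 34.5 and 37.1 with OVOL2 + M2rtTA. Here the OVOL2 libraries without M2rtTA lay below their controls as well, with an effect of −0.35 and an adjusted p of 0.0837. The effect with M2rtTA was −1.68 (SE 0.12), and the difference was −1.33 (SE 0.16, adjusted p = 0.00295). PFDN2, a subunit of the prefoldin complex that passes unfolded actin and tubulin to the cytosolic chaperonin, was at 280.2 to 348 CPM with mCherry, 222 to 254 with OVOL2, 304 to 330.2 with mCherry + M2rtTA and 74.6 to 102 with OVOL2 + M2rtTA. These ranges do not overlap except those of the mCherry groups, and the difference was −1.55 (SE 0.21, adjusted p = 0.00496).

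RPS4X, a protein of the small cytosolic ribosomal subunit, was the most abundant of the 8 named genes of this class, at 3262 ± 265 CPM with mCherry, 3300.0 ± 176 with OVOL2, 3546 ± 231 with mCherry + M2rtTA and 1914 ± 11.8 with OVOL2 + M2rtTA (n = 3 each). The OVOL2 + M2rtTA group lay below the other 3, which were close to each other, with a difference of −0.91 (SE 0.12, adjusted p = 0.00496). ALDH1A1, which oxidises retinaldehyde to retinoic acid, lay at 35.7, 35.1 and 33.2 CPM with mCherry, 34.7, 34.1 and 36.97 with OVOL2, 34.02, 34.3 and 33.6 with mCherry + M2rtTA and 11.8, 12.2 and 15.3 with OVOL2 + M2rtTA. The first 9 of these libraries spanned a narrow range and the last 3 lay below it, and the difference was −1.41 (SE 0.17, adjusted p = 0.00325). The remaining named genes of this class were CREM, a transcription factor of cyclic AMP signalling, COL5A2, a fibrillar collagen chain, and HDGFL3, a member of the hepatoma-derived growth factor family. Their differences were −1.53 (SE 0.20) for CREM, −1.47 (SE 0.20) for COL5A2 and −1.29 (SE 0.18) for HDGFL3, each with an adjusted p of 0.00496. Between the mCherry groups HDGFL3 was higher with M2rtTA by 0.43, which did not pass (adjusted p = 0.570). In 108 of the 111 genes of this class the 3 OVOL2 + M2rtTA libraries lay below all the other 9, as they did in 1182 of all 13662 tested genes. The class was chosen on the same values, so this is a description. Genes with many near-identical copies, among them RPS4X and other ribosomal proteins, are uncertain where the counting could split reads between copies.

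**Figure D3:**
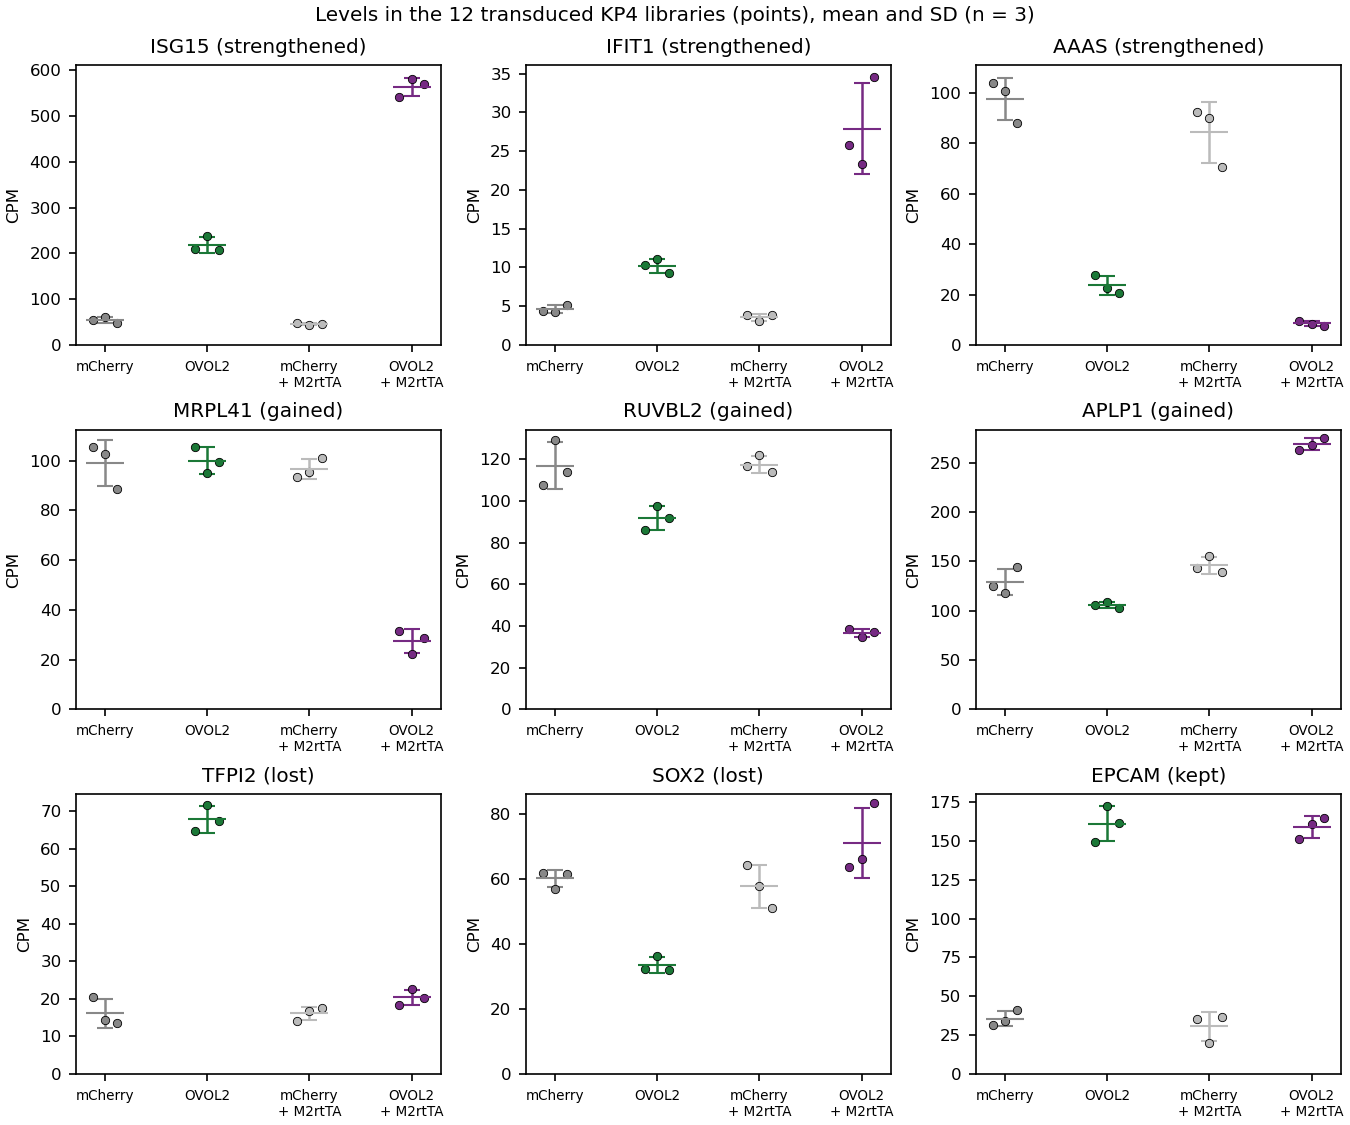
Levels in CPM (linear axes from 0) of 9 genes in the 12 transduced KP4 libraries, 1 point per library, with mean and SD (n = 3) per group. MRPL41 and RUVBL2 are lowest and APLP1 is highest in the OVOL2 + M2rtTA libraries, TFPI2 and SOX2 depart in the OVOL2 libraries without M2rtTA, and EPCAM rises in both arms.

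Gene lists placed these genes in complexes. Of 14 tested members of the cytosolic chaperonin and prefoldin, 3 were called lower without M2rtTA and 10 with it, where 3.56% and 12.5% of all genes were called lower. The difference was called negative for 5 of the 14 (PFDN2, CCT7, CCT6A, CCT5 and CCT4), against 1.01% of all genes, and the median difference was −0.64 against −0.01 over all genes. Of the 12 fits that left out 1 library, it passed in all 12 for PFDN2 and CCT7, in 6 for CCT6A, 5 for CCT5 and 2 for CCT4. CCT7, a chaperonin subunit, was at 118 to 152 CPM with mCherry, 104 to 112 with OVOL2, 118 to 132 with mCherry + M2rtTA and 47.1 to 49.5 with OVOL2 + M2rtTA. The mCherry groups overlapped, the OVOL2 libraries lay below them, and the OVOL2 + M2rtTA libraries were lowest. Of 43 ribosome assembly factors, 2 were lower without M2rtTA and 23 with it, and the difference was negative for 7 (SNU13, NOP10, NOP16, FCF1, RSL24D1, DCAF13 and RPF1), with a median of −0.36. SNU13, which binds small nucleolar RNAs and the U4 RNA of the spliceosome, had a difference of −1.07 (SE 0.16, adjusted p = 0.00961). Of 77 mitochondrial ribosomal proteins, 3 were lower and 1 higher without M2rtTA and 31 lower and 1 higher with it, and the difference was negative for 9 (MRPL41, MRPL22, MRPL24, MRPL16, MRPL39, MRPL13, MRPL42, MRPL17 and MRPS18C), with a median of −0.29. SNU13, NOP10, MRPL41, MRPL22 and MRPL24 passed in all 12 fits that left out 1 library, the other 5 assembly factors in 0 to 11 and the other 6 mitochondrial proteins in 1 to 6. The 17 mitochondrial aminoacyl-tRNA synthetases had 0 calls without M2rtTA in edgeR and in DESeq2, with 1 at an unadjusted p under 0.05, and 6 lower with it, and the difference was negative for 2. Of 37 proteasome subunits 1 was lower without M2rtTA and 16 with it, with a negative difference for PSMB3 that passed in 2 of the 12 fits that left out 1 library, and of 37 nuclear-encoded subunits of respiratory complex I these counts were 3 and 14, with negative differences for NDUFB10 and NDUFB3. These 6 lists were drawn up after the values of the 195 genes had been seen, so their counts describe where the genes fall and are no independent evidence of a direction.

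Members of the cytosolic ribosome and of cell division lists also fell with M2rtTA, where 3.56% of all genes were called lower without it, 12.5% with it and 1.01% had a negative difference. Of 40 cytosolic ribosomal proteins 0 were called without M2rtTA by edgeR and by DESeq2 (3 at an unadjusted p under 0.05), and 16 were lower with it, while the difference was negative for RPS4X and RPS16 and its median was −0.25. RPS16, of the small subunit, had a difference of −0.61 (SE 0.14, adjusted p = 0.0498) and passed in 1 of the 12 fits that left out 1 library. Of 39 DNA replication genes 1 was lower without M2rtTA and 16 with it, and of 35 mitosis genes 6 and 21. At an unadjusted p under 0.05, 12 replication genes were lower without M2rtTA and 21 with it, and 24 and 25 mitosis genes. Over all 13662 genes 2819 and 4744 stood under that p in either direction. The mitosis list thus fell in both arms, with a median effect of −0.43 without M2rtTA and −0.64 with it. Over all genes 2074 had a difference at an unadjusted p under 0.05. The difference was called by edgeR for 0 of the replication genes (6 at an unadjusted p under 0.05, 1 by DESeq2) and for 2 of the mitosis genes. These were CCNB1, the cyclin of entry into mitosis, at 337 ± 23.97, 267 ± 7.07, 366 ± 25.5 and 188 ± 5.72 CPM in the mCherry, OVOL2, mCherry + M2rtTA and OVOL2 + M2rtTA groups, and DLGAP5, a spindle protein, with a difference of −1.20 (SE 0.25, adjusted p = 0.0288). CCNB1 had a difference of −0.63 (SE 0.14, adjusted p = 0.0477), which passed in 0 of the 12 fits that left out 1 library, and that of DLGAP5 passed in 4.

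**Figure D4:**
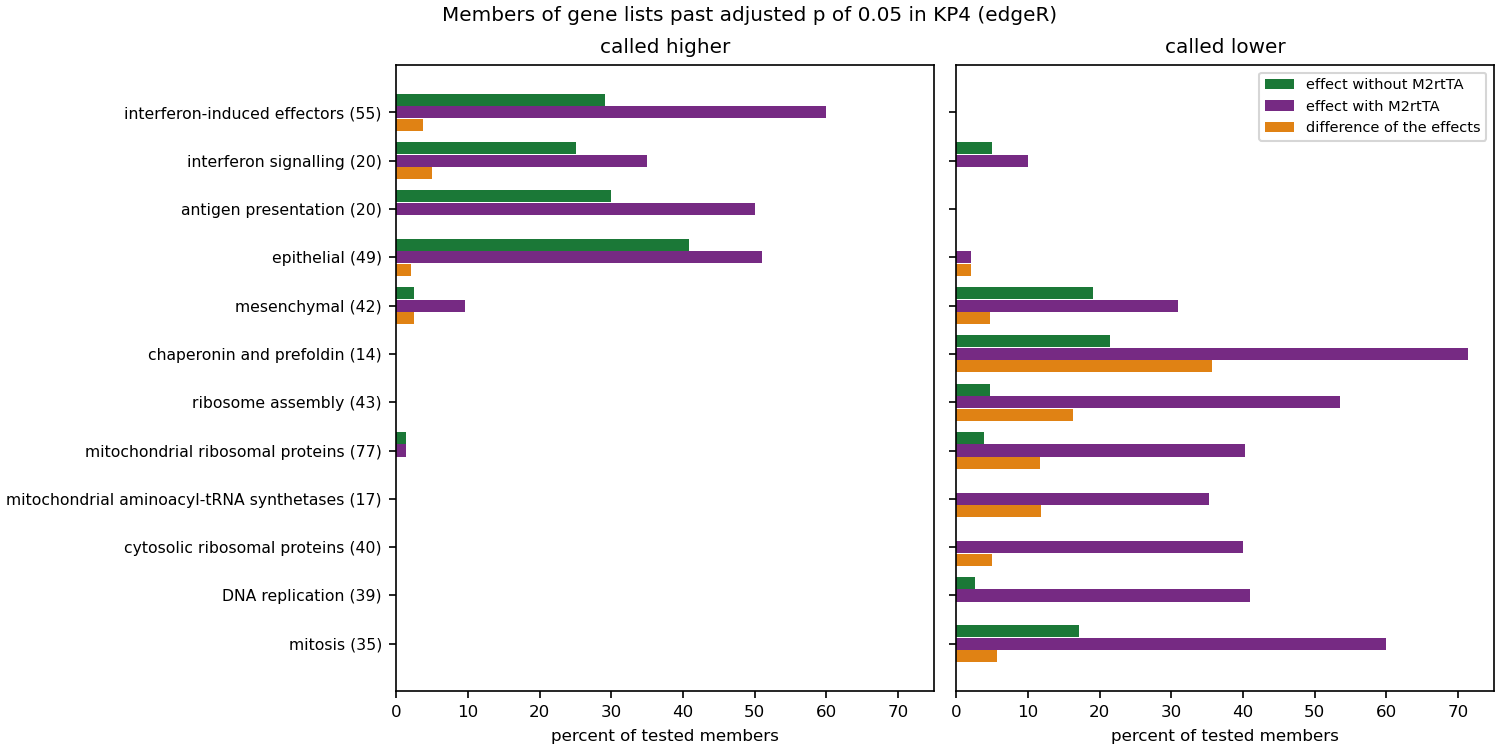
Percent of the tested members of 12 gene lists (member numbers in parentheses) that passed an adjusted p of 0.05 in edgeR as higher (left) or lower (right), for the OVOL2 effect without M2rtTA, with M2rtTA and for their difference. The chaperonin and prefoldin list has the highest share of lower members with M2rtTA, 10 of 14, and the interferon-induced list the highest share of higher members, 33 of 55.

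Of the 33 genes that gained a rise, 2 belonged to any of the gene lists, and the named ones have varied functions. APLP1, a relative of the amyloid precursor protein, was at 125, 118 and 144 CPM with mCherry, 106, 109 and 102 with OVOL2, 143, 156 and 139 with mCherry + M2rtTA and 263, 268 and 275 with OVOL2 + M2rtTA. The OVOL2 libraries without M2rtTA were the lowest, and the 3 OVOL2 + M2rtTA libraries lay above the other 9. Its effect went from −0.29 (adjusted p = 0.153) to 0.88 (adjusted p = 0.000103), a difference of 1.16 (SE 0.16, adjusted p = 0.00496). PIANP, a neural membrane protein, was at 65.8 ± 1.80, 73.2 ± 4.02, 79.2 ± 10.6 and 189 ± 19.5 CPM in the mCherry, OVOL2, mCherry + M2rtTA and OVOL2 + M2rtTA groups, with a difference of 1.10 (SE 0.18, adjusted p = 0.0114). RARA, the retinoic acid receptor alpha, was at 23.3, 28.5 and 22.5 CPM with mCherry, 13.5, 15.97 and 17.6 with OVOL2, 17.2, 25.6 and 22.8 with mCherry + M2rtTA and 43.1, 34.5 and 50.3 with OVOL2 + M2rtTA. Its OVOL2 libraries were low, with 1 mCherry + M2rtTA library among them, and its OVOL2 + M2rtTA libraries were the highest, with a difference of 1.62 (SE 0.28, adjusted p = 0.0135).

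ASMTL, a protein related to acetylserotonin methyltransferase, had a difference of 1.31 (SE 0.19, adjusted p = 0.00614), and ENDOG, the mitochondrial endonuclease G, one of 1.24 (SE 0.21, adjusted p = 0.0122). Without M2rtTA the OVOL2 libraries of ENDOG lay below the mCherry libraries, with an effect of −0.48 that did not pass (adjusted p = 0.0781). With M2rtTA the effect on ENDOG was 0.77 (adjusted p = 0.00224). SPSB1, a substrate adaptor of an E3 ubiquitin ligase, and SEC24A, a coat protein of vesicles leaving the endoplasmic reticulum, differed by 1.00 (SE 0.17, adjusted p = 0.0116) and 1.74 (SE 0.31, adjusted p = 0.0145). ATP1B2, a beta subunit of the sodium-potassium pump, rose from 3.24 ± 1.05 CPM with mCherry + M2rtTA to 12.1 ± 0.914 with OVOL2 + M2rtTA, and its difference was 2.20 (SE 0.39, adjusted p = 0.0149). Without M2rtTA it was at 5.51 ± 0.992 CPM with mCherry and 4.32 ± 1.21 with OVOL2. The change of ATP1B2 between the mCherry groups was −0.73 and did not pass (adjusted p = 0.679). SEC24A was at 6.12 to 7.42 CPM with mCherry + M2rtTA and 11.4 to 12.6 with mCherry alone, a change that did not pass (adjusted p = 0.507). In 29 of the 33 genes of this class, chosen on the same values, the OVOL2 + M2rtTA libraries lay above the other 9, as they did in 868 of all tested genes. The 2 list members were GDF15, a stress-induced cytokine in the list of p53 targets (1.75, SE 0.37, adjusted p = 0.0317), and PMEPA1, a feedback inhibitor in the TGF-beta list (0.97, SE 0.18, adjusted p = 0.0161).

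The 27 genes whose effect was strengthened included 3 of the interferon response, ISG15, IFIT1 and IRF9. ISG15, a ubiquitin-like protein that is joined to other proteins after interferon exposure, was at 54.1, 60.2 and 47.2 CPM with mCherry and 210.2, 238 and 206 with OVOL2. It was at 46.95, 44.5 and 46.1 with mCherry + M2rtTA and 543, 581 and 569.6 with OVOL2 + M2rtTA. No groups overlapped, though the 2 mCherry groups lay next to each other, and the OVOL2 + M2rtTA libraries stood above all others. The effect was 2.02 (SE 0.12) without M2rtTA and 3.62 (SE 0.13) with it, a difference of 1.60 (SE 0.16, adjusted p = 0.000950). IFIT1, which binds foreign RNA, was at 4.44, 4.22 and 5.21 CPM with mCherry, 10.3, 11.1 and 9.28 with OVOL2, 3.86, 3.07 and 3.84 with mCherry + M2rtTA and 25.8, 23.4 and 34.5 with OVOL2 + M2rtTA. The order of its groups was that of ISG15, and its difference was 1.79 (SE 0.29, adjusted p = 0.0114). IRF9, a DNA-binding transcription factor of the interferon response, was at 7.61, 6.55 and 9.01 CPM with mCherry, 33.7, 35.3 and 37.8 with OVOL2, 5.44, 8.45 and 7.88 with mCherry + M2rtTA and 78.1, 73.4 and 76.9 with OVOL2 + M2rtTA. Its difference was 1.18 (SE 0.23, adjusted p = 0.0239), and it passed in 7 of the 12 fits that left out 1 library, with adjusted p up to 0.0752.

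The promoters of ISG15 and IFIT1 are shown because they hold the interferon-stimulated response element core, GAAA followed by any 2 bases and GAAA again, to which IRF9 binds as part of a complex. The sequences are from RefSeq promoters of GRCh38.p14, read 5′ to 3′ on the gene's strand, with the matches and their reverse complements in capitals; matches of ISG15 overlap, and those of IFIT1 read on the opposite strand. ISG15 is shown at chr1:1013354-1013429 (+) and IFIT1 at chr10:89392477-89392559 (+).
ISG15: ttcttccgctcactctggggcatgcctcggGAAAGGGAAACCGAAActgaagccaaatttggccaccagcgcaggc
IFIT1: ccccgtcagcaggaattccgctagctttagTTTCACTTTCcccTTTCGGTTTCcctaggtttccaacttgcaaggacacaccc
In the 250 bases before the start, searched on both strands, this motif was found in 23 of 42 matched promoters of the tested interferon-induced genes and in 246 of 10764 matched promoters of all tested genes (2.29%). It was found in 3 of 25 matched promoters of strengthened genes. IRF9 had no match in this window, and a match is a description of letters and not of binding.

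Of the list of interferon-induced genes, members rose in both arms. Of 55 tested, 16 were called higher without M2rtTA and 33 with it, and 0 were lower in either arm by edgeR (1 at an unadjusted p under 0.05 in each arm) and by DESeq2, against 3.26% and 9.91% of all genes called higher. The median effect was 0.68 without M2rtTA and 0.87 with it, and the median difference was 0.52, where the median difference over all genes was −0.01. By edgeR the difference itself was called for 2 of the 55, ISG15 and IFIT1, against 0.417% of all genes called positive. At an unadjusted p under 0.05 it was positive for 17 and negative for 0, and DESeq2 called 4, all positive. Over all 13662 genes the difference stood at an unadjusted p under 0.05 for 2074, in either direction. Named members without a called difference included MX1, an antiviral GTPase, with effects of 2.56 and 3.20, and IFIT3, a partner of IFIT1, with effects of 1.18 (adjusted p = 0.131) and 3.15 (adjusted p = 0.000119) and a difference of 1.97 (adjusted p = 0.130). Of 20 interferon signalling genes, 5 were higher and 1 lower without M2rtTA and 7 higher and 2 lower with it, with a positive difference for IRF9. Of 20 antigen presentation genes 6 were higher without M2rtTA and 10 with it, with 0 differences called by edgeR (7 at an unadjusted p under 0.05) and 3 by DESeq2. HLA-B, a class I antigen-presenting molecule, had effects of 0.97 and 2.16 and a difference of 1.19 (SE 0.31, adjusted p = 0.0761). Of 14 nucleic acid sensing genes 0 were called without M2rtTA in edgeR and DESeq2 (0 at an unadjusted p under 0.05), 3 were higher with it, and 0 differences were called by either tool (3 at an unadjusted p under 0.05).

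Other strengthened rises were of GADD45B, a stress-induced regulator of growth arrest, KIF1A, a kinesin, CTSV and NEU1, a lysosomal protease and a lysosomal sialidase, LSR, a protein of tricellular junctions, and SAPCD2. GADD45B was at 11.3, 8.24 and 12.3 CPM with mCherry, 20.3, 15.4 and 16.8 with OVOL2, 7.94, 11.3 and 11.9 with mCherry + M2rtTA and 45.5, 50.4 and 66.4 with OVOL2 + M2rtTA, with a difference of 1.65 (SE 0.29, adjusted p = 0.0139). The mCherry groups overlapped, the OVOL2 libraries lay above them, and the OVOL2 + M2rtTA libraries were highest. KIF1A had the largest difference of the 9, 2.01 (SE 0.41, adjusted p = 0.0285), and CTSV was at 203 ± 18.8 CPM with OVOL2 + M2rtTA against 88.5 ± 5.88 with OVOL2 and 22.6 ± 3.82 with mCherry. Of the 12 fits that left out 1 library, the difference passed in all 12 for GADD45B, in 4 for KIF1A, in 3 for SAPCD2 and in 1 for CTSV, NEU1 and LSR.

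Strengthened falls were found for 18 genes. MND1, a factor of meiotic recombination, was at 95.97, 85.5 and 89.8 CPM with mCherry, 53.8, 66.2 and 54.4 with OVOL2, 90.5, 102 and 88.7 with mCherry + M2rtTA and 23.9, 18.7 and 25.5 with OVOL2 + M2rtTA. Each OVOL2 group lay below its control and the one with M2rtTA was lowest, a difference of −1.41 (SE 0.19, adjusted p = 0.00496). ADGRA3, an adhesion G protein-coupled receptor, and HMGN3, a nucleosome-binding protein, had differences of −1.93 (SE 0.30, adjusted p = 0.0112) and −1.91 (SE 0.30, adjusted p = 0.0112). HMGN3 went from 75.2 ± 14.7 CPM with mCherry to 30.3 ± 5.38 with OVOL2 and from 102 ± 17.1 with mCherry + M2rtTA to 10.9 ± 2.03 with OVOL2 + M2rtTA. Members of lists among them were TPM2, a tropomyosin, with a difference of −1.21 (SE 0.20), PSAT1, an enzyme of serine synthesis, with −0.96 (SE 0.19), LDHA, a lactate dehydrogenase subunit, with −0.88 (SE 0.19), and NDUFB10 and CCT4, given above with their complexes. The other falls were of AAAS, a nuclear pore protein, HSPD1, the mitochondrial chaperonin, MTHFD1, a folate enzyme, AGPS, an ether lipid enzyme, RGS5, a regulator of G protein signalling, SLFN11, LDHB, TMEM158, ABHD10 and KLRC2. In all 27 strengthened genes the OVOL2 + M2rtTA libraries lay outside the range of the other 9, which the choice of the class favours.

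An effect of OVOL2 was lost or weakened in 21 genes. TFPI2, a serine protease inhibitor of the extracellular matrix, was at 20.6, 14.4 and 13.5 CPM with mCherry, 64.6, 71.5 and 67.2 with OVOL2, 14.1, 16.6 and 17.6 with mCherry + M2rtTA and 18.5, 22.5 and 20.3 with OVOL2 + M2rtTA. Only the OVOL2 libraries without M2rtTA stood apart, and its effect went from 2.06 (SE 0.21, adjusted p = 6.36e-05) to 0.34 (SE 0.21, adjusted p = 0.261). The difference was −1.72 (SE 0.29, adjusted p = 0.0114). UAP1, which makes the sugar donor UDP-N-acetylglucosamine, was at 218, 200.2 and 182 CPM with mCherry, 356, 359 and 346 with OVOL2, 171, 163 and 161 with mCherry + M2rtTA and 157, 140.3 and 131 with OVOL2 + M2rtTA. It was high in the OVOL2 libraries alone, and the OVOL2 + M2rtTA libraries lay slightly below the rest, with a difference of −1.03 (SE 0.17, adjusted p = 0.0114). CLDN1, a claudin of tight junctions, was at 32.4 ± 2.43, 104 ± 6.83, 24.1 ± 3.22 and 34.4 ± 4.76 CPM in the mCherry, OVOL2, mCherry + M2rtTA and OVOL2 + M2rtTA groups. Its effect was weakened from 1.68 to 0.52 (difference −1.16, SE 0.24, adjusted p = 0.0285).

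S100A11, a calcium-binding protein, SURF2 and GADD45A, a stress-induced growth arrest gene, also rose without M2rtTA and not with it, with differences of −0.91 (SE 0.19), −0.72 (SE 0.16) and −1.03 (SE 0.24). These calls were close to the threshold, at adjusted p of 0.0285, 0.0414 and 0.0477. Of the 12 fits that left out 1 library, the difference passed in 3 for S100A11, 2 for CLDN1 and GADD45A and 1 for SURF2, and in all 12 for TFPI2 and UAP1. The highest adjusted p among these fits was 0.0833 for S100A11, 0.0786 for CLDN1, 0.119 for GADD45A and 0.109 for SURF2. The class also held DHRS7, a short-chain dehydrogenase, and RNASEH1, whose OVOL2 libraries differed widely among themselves, at 25.8, 700.0 and 178 CPM.

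Falls that were lost included SOX2, a transcription factor of stem and progenitor cells. It was at 61.9, 57.01 and 61.6 CPM with mCherry, 32.3, 36.2 and 32.01 with OVOL2, 64.4, 57.9 and 51.1 with mCherry + M2rtTA and 63.8, 66.2 and 83.5 with OVOL2 + M2rtTA. The OVOL2 libraries lay below all others, and the M2rtTA groups did not differ beyond the threshold. Its effect was −0.84 (SE 0.14, adjusted p = 0.00218) without M2rtTA and 0.30 (SE 0.13, adjusted p = 0.130) with it, a difference of 1.14 (SE 0.19, adjusted p = 0.0114). ZKSCAN8, a zinc-finger protein, was at 13.4 ± 2.47, 6.72 ± 0.663, 11.3 ± 0.365 and 15.2 ± 1.86 CPM in the mCherry, OVOL2, mCherry + M2rtTA and OVOL2 + M2rtTA groups, with a difference of 1.42 (SE 0.24, adjusted p = 0.0122). NME4, a nucleoside diphosphate kinase of mitochondria, was at 433, 396 and 364 CPM with mCherry, 203, 199 and 201 with OVOL2, 385, 420.4 and 349 with mCherry + M2rtTA and 315, 359.6 and 350.5 with OVOL2 + M2rtTA. The OVOL2 libraries without M2rtTA lay below all others, with a difference of 0.81 (SE 0.16, adjusted p = 0.0205). LOC730098, an uncharacterised locus, TMEM94, a membrane protein, and CLU, the secreted chaperone clusterin, had differences of 2.85 (SE 0.47), 1.80 (SE 0.33) and 0.83 (SE 0.16), with adjusted p of 0.0114, 0.0177 and 0.0211. The difference passed in all 12 fits that left out 1 library for SOX2, ZKSCAN8 and LOC730098, in 11 for TMEM94, and in 6 for NME4 and CLU, where the adjusted p reached 0.053 for TMEM94, 0.0571 for NME4 and 0.0582 for CLU.

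VIM, the mesenchymal intermediate filament vimentin, fell in both arms. It was at 1930.3, 1744 and 1805 CPM with mCherry, 389, 395 and 392 with OVOL2, 1594, 1701 and 1452 with mCherry + M2rtTA and 499, 535 and 492 with OVOL2 + M2rtTA. Both OVOL2 groups lay far below their controls, and the one with M2rtTA was the less low. Its effect was −2.22 (SE 0.09) without M2rtTA and −1.64 (SE 0.09) with it, a difference of 0.58 (SE 0.13, adjusted p = 0.0389) that passed in 1 of the 12 fits that left out 1 library, with adjusted p up to 0.098. LTBP4, a binding protein of latent TGF-beta, and SLC47A1, an organic cation exporter, were weakened too, with differences of 1.64 (SE 0.33, adjusted p = 0.0280) and 1.37 (SE 0.31, adjusted p = 0.0462). Of the 12 fits that left out 1 library, the difference passed in 6 for LTBP4 and in 0 for SLC47A1. In 18 of the 21 lost or weakened genes the OVOL2 libraries without M2rtTA lay outside the range of the other 9 (7 above and 11 below), as they did in 3.10% of all tested genes, a description since the classes were chosen on the same values.

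The promoters of NME4 and ZKSCAN8 are shown because they hold CCGTTA, the core to which OVOL proteins bind, among the lost falls. The sequences are from RefSeq promoters of GRCh38.p14, 5′ to 3′ on the gene's strand, with the match in capitals (its reverse complement in NME4), at chr16:396949-397010 (+) and chr6:28141647-28141712 (+).
NME4: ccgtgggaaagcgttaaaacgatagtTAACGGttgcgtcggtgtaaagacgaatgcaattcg
ZKSCAN8: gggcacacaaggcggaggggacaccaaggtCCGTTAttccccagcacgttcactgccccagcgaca
Within the 250 bases before the start, on both strands, CCGTTA was found in 3 of 12 matched promoters of lost genes (LOC730098, NME4 and ZKSCAN8) and in 3.21% of the matched promoters of all tested genes. It was found in 5 of 92 matched promoters of genes that gained a fall and in 11 of 270 of kept genes. SOX2, TFPI2, VIM and ZEB1 had no match in this window, from which nothing follows about binding elsewhere.

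For 3 genes the effect was called in opposite directions. TUBB4A, a beta-tubulin with close paralogs, was at 7.14, 8.87 and 7.11 CPM with mCherry, 1.54, 0.779 and 1.60 with OVOL2, 7.71, 10.8 and 9.50 with mCherry + M2rtTA and 12.7, 26.99 and 25.8 with OVOL2 + M2rtTA. It was lowest with OVOL2 and highest with OVOL2 + M2rtTA, with no overlap with the controls in either arm. Its effect was −2.51 (SE 0.35, adjusted p = 0.000840) without M2rtTA and 1.22 (SE 0.28, adjusted p = 0.00603) with it. C11orf96 showed the same order at low counts, 8, 9 and 8 with mCherry, 1, 0 and 3 with OVOL2, 3, 4 and 8 with mCherry + M2rtTA and 50, 21 and 19 with OVOL2 + M2rtTA. Since all its OVOL2 libraries were at or under 3 counts, its fall without M2rtTA is given by these counts and not by a fold. SRPRB, a subunit of the receptor that docks ribosomes at the endoplasmic reticulum, rose by 0.57 (adjusted p = 0.0446) without M2rtTA and fell with it, with an effect of −0.62 (adjusted p = 0.0130). Its difference of −1.19 (SE 0.23) passed in 8 of the 12 fits that left out 1 library, with adjusted p up to 0.0577.

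The genes that kept the effect included epithelial ones. EPCAM, an epithelial adhesion molecule, was at 31.4, 34.2 and 41.00 CPM with mCherry, 149.6, 172 and 162 with OVOL2, 35.6, 19.97 and 36.6 with mCherry + M2rtTA and 151, 161 and 165 with OVOL2 + M2rtTA. The OVOL2 groups overlapped each other and stood above both controls. Its effect was 2.18 (SE 0.22) without M2rtTA and 2.37 (SE 0.23) with it, with a 95% interval of the difference of −0.47 to 0.84. KDF1, a factor of epidermal differentiation, had the largest rise without M2rtTA among the 168 kept rises, 3.56 (SE 0.27) and 3.71 (SE 0.27), with an interval of −0.68 to 0.97. The splicing regulator ESRP2 rose by 1.88 and 1.86 (interval −0.94 to 0.89) and CYP2S1, a cytochrome P450, by 1.74 and 2.08 (interval −0.26 to 0.95). For ESRP2 the SE was 0.36 and 0.34 for the effects and 0.43 for the difference of −0.02. An SE computed from so small a change is imprecise, so it is uncertain whether ESRP2 meets the rule for kept. ARHGEF35, which has a near-identical copy in ARHGEF5 and is uncertain for that reason, rose by 2.01 and 1.97 (interval −0.74 to 0.67), and the zinc-finger gene ZNF165 by 1.75 and 2.29 (interval 0.09 to 0.99). ZNF165 was also higher with OVOL2 + M2rtTA than with OVOL2, by 0.56 (adjusted p = 0.0257 in edgeR).

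Kept falls included HEG1, a membrane protein of endothelial and mesothelial cells, with effects of −2.07 and −2.28 (interval −0.96 to 0.54), and EID1, an inhibitor of transcriptional coactivators, with −2.03 and −2.14 (interval −0.64 to 0.41). HSPB11, a part of the ciliary transport machinery, had effects of −1.87 and −1.95 (interval −0.56 to 0.39), and GSS, glutathione synthetase, of −1.77 and −2.05 (interval −0.80 to 0.25). SRD5A3, a polyprenol reductase of glycosylation, and the locus LOC101927480 had effects of −1.84 and −1.82 (interval −0.48 to 0.53) and of −1.76 and −2.03 (interval −0.84 to 0.30). CDH1, E-cadherin, ESRP1, a splicing regulator, and ZEB1, a repressor of epithelial genes, changed in both arms, but their intervals were too wide to call the effect kept. CDH1 was at 3.01, 6.12 and 2.84 CPM with mCherry, 22.1, 23.4 and 25.1 with OVOL2, 4.99, 0.768 and 6.47 with mCherry + M2rtTA and 27.9, 26.5 and 30.3 with OVOL2 + M2rtTA, with an interval of the difference of −1.12 to 1.49. ZEB1 was at 17.9, 23.4 and 21.3 CPM with mCherry, 4.15, 2.92 and 2.24 with OVOL2, 17.01, 17.2 and 25.3 with mCherry + M2rtTA and 5.64, 8.08 and 1.05 with OVOL2 + M2rtTA, with an interval of −0.54 to 2.11. For both genes each OVOL2 group lay apart from the controls, and the 2 OVOL2 groups overlapped for ZEB1 but not for CDH1. ESRP1 had effects of 3.06 and 2.81 and an interval of −1.63 to 1.13.

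Over the list of 49 epithelial genes, 20 were called higher and 0 lower without M2rtTA, and 25 higher and 1 lower with it, against 3.26% and 9.91% of all genes called higher. The difference was positive for LSR and negative for CLDN1, and the median difference was 0.15. Of 42 mesenchymal genes, 8 were lower and 1 higher without M2rtTA and 13 lower and 4 higher with it. Over all genes 3.56% were lower and 3.26% higher without M2rtTA, and 12.5% lower and 9.91% higher with it. Their difference was positive for VIM and negative for TPM2 and for ITGA5, a fibronectin receptor subunit that gained a fall, with a median of 0.03. ITGA5 was at 25.3 to 26.99 CPM with mCherry + M2rtTA and 11.5 to 14.5 with OVOL2 + M2rtTA, which did not overlap, and its difference was −0.89 (SE 0.20, adjusted p = 0.0441), passing in 1 of the 12 fits that left out 1 library.

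Among metabolic and signalling lists, differences were called for members of the amino acid, glycolysis, p53, TGF-beta and YAP lists. Over all genes 1.43% had a called difference, and the shares called higher and lower were 3.26% and 3.56% without M2rtTA and 9.91% and 12.5% with it. Of 37 amino acid response genes 2 were higher and 5 lower without M2rtTA and 7 higher and 11 lower with it, with negative differences for PSAT1 and for ASNS, asparagine synthetase (−0.87, SE 0.19, adjusted p = 0.0324). Of 35 glycolysis and hypoxia genes 5 were higher and 6 lower without M2rtTA and 3 higher and 10 lower with it, with negative differences for LDHA and for 2 glycolytic enzymes, PGK1 (−1.11, SE 0.18, adjusted p = 0.0114) and ENO1 (−0.89, SE 0.20, adjusted p = 0.0411). PGK1 fell to 88.5 to 90.1 CPM with OVOL2 + M2rtTA, below the 184 to 239.6 of its controls. Of 22 p53 targets 2 were higher without M2rtTA, and 5 were higher and 3 lower with it. The difference was positive for GDF15 and negative for CCNG1, a cyclin G (−0.97, SE 0.22, adjusted p = 0.0461), so these 2 genes did not move in 1 direction. GADD45A is not in the list of p53 targets used here. Of the 12 fits that left out 1 library, the difference passed in all 12 for PGK1, in 3 for ASNS and ENO1, in 2 for PSAT1, LDHA and GDF15 and in 1 for CCNG1. In the list of 26 TGF-beta pathway genes edgeR called the difference for PMEPA1 (5 genes at an unadjusted p under 0.05, 1 by DESeq2), and in that of 24 YAP and TEAD targets for GADD45A (3 genes at an unadjusted p under 0.05, 2 by DESeq2). By edgeR the difference was called for 0 genes of 7 other lists, where 1.43% of all genes were called. Over all 13662 genes, 2074 had a difference at an unadjusted p under 0.05. At an unadjusted p under 0.05 these lists held 2 of 30 genes of cholesterol and fatty acid synthesis, 6 of 33 NF-kB inflammatory genes, 4 of 29 NRF2 detoxification genes, 9 of 29 MAPK feedback genes, 2 of 8 replication-dependent histones, 7 of 36 nuclear oxidative phosphorylation genes and 0 of 13 mitochondrially encoded genes. DESeq2 called 1 of the NF-kB, NRF2, histone and oxidative phosphorylation lists each, 3 of the MAPK list and 0 of the other lists. It was also called by edgeR for 0 of 8 tested ductal markers (1 at an unadjusted p under 0.05, 1 by DESeq2) and for 0 of 3 blood and immune and 2 endothelial markers (0 by either count), and no acinar or endocrine marker passed the filter on low counts.

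KP4 was compared with the other transduced lines, PANC1 and PK45H, in 1 edgeR fit of 45 libraries. The difference of the effects in KP4 minus the mean of those in PANC1 and PK45H was called for 10 of 14943 genes (0.0669%, 1 higher and 9 lower), with 1173 at an unadjusted p under 0.05. The 1 gene with a higher value in KP4 was ISG15. Its difference was 1.59 (SE 0.20) in KP4, 0.06 (SE 0.20) in PANC1 and 0.63 (SE 0.20) in PK45H, and KP4 stood 1.25 above their mean (SE 0.24, adjusted p = 0.0249). IRF9 and IFIT1 had like values, 1.30 (SE 0.43, adjusted p = 0.351) and 1.31 (SE 0.74, adjusted p = 0.714), and did not pass. TFPI, the tissue factor pathway inhibitor, gained a fall in KP4 (−1.22, SE 0.21) and differed from the other lines, with 0.39 (SE 0.21) in PANC1, −0.13 (SE 0.21) in PK45H and an adjusted p of 0.0201 for KP4 against their mean. LINC00294, a non-coding RNA, was also called, with −1.88 (SE 0.39, adjusted p = 0.0415). For S100A4, a calcium-binding protein, and MARCKSL1, an actin-regulating protein, the KP4 differences were −0.34 and −0.33 (adjusted p = 0.585 and 0.525) and those in PK45H were 1.76 and 2.30 (adjusted p = 1.39e-05 and 4.76e-08). In PANC1 the differences of these 2 genes were 1.01 and −0.01 (adjusted p = 0.0383 and 0.995). The other called genes, RNASEH1, BECN1, INPP5F, SLC13A1 and FAM131A, each had 1 or 2 KP4 libraries of a group far above their mates, as SLC13A1 at 1194, 2.30 and 14.96 CPM with mCherry + M2rtTA. Without mCherry + M2rtTA replicate 1 the count of 10 was 0, without OVOL2 replicate 1 it was 22, and with DESeq2 it was 36.

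Some of the genes were called in the other lines too. In the same fit the difference was called for 391 genes in KP4 (2.62%), 494 in PK45H (3.31%) and 59 in PANC1 (0.395%), which share no library. Some named genes called in the fit of KP4 alone did not pass for KP4 here. They included SOX2 (adjusted p = 0.245), PIANP (0.278), ALDH1A1 (0.168), GADD45A (0.116), IFIT1 (0.0923), VIM (0.0739), ASMTL (0.0727) and IRF9 (0.0593). Of the 195 KP4 genes, 50 were called in PK45H (25.6% of the 195 and 10.1% of the PK45H genes), 48 of them with the same sign. In PANC1 12 were called (6.15% of the 195 and 20.3% of the PANC1 genes), all with the same sign. Called or not, 169 of the 195 had the same sign in PK45H and 163 in PANC1. Over all genes of this fit the sign was shared by 60.2% between KP4 and PK45H and by 57.6% between KP4 and PANC1. PFDN2 had differences of −1.56 (SE 0.22) in KP4, −0.89 (SE 0.21, adjusted p = 0.0519) in PANC1 and −1.65 (SE 0.22, adjusted p = 1.39e-05) in PK45H. RUVBL2 had −1.34, −0.63 and −1.52, and MRPL41 had −1.84, −0.70 and −1.10, and of these the PK45H values passed for both (adjusted p = 1.10e-05 and 0.000549). Of the lost genes SURF2, STOM and LOC730098 were called in PK45H as well, with the same sign as in KP4 (for LOC730098 2.40, SE 0.68, adjusted p = 0.0442) and CLU in PANC1 (0.84, SE 0.19, adjusted p = 0.0340). The genes called in all 3 lines were TWF1, an actin-binding protein, and the chaperonin genes HSPD1 and CCT4. The 2 genes called in PK45H with the opposite sign were UPP1, a uridine phosphorylase (−1.14 in KP4 and 0.79 in PK45H), and TMEM158 (−1.04 and 1.12).

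**Figure D5:**
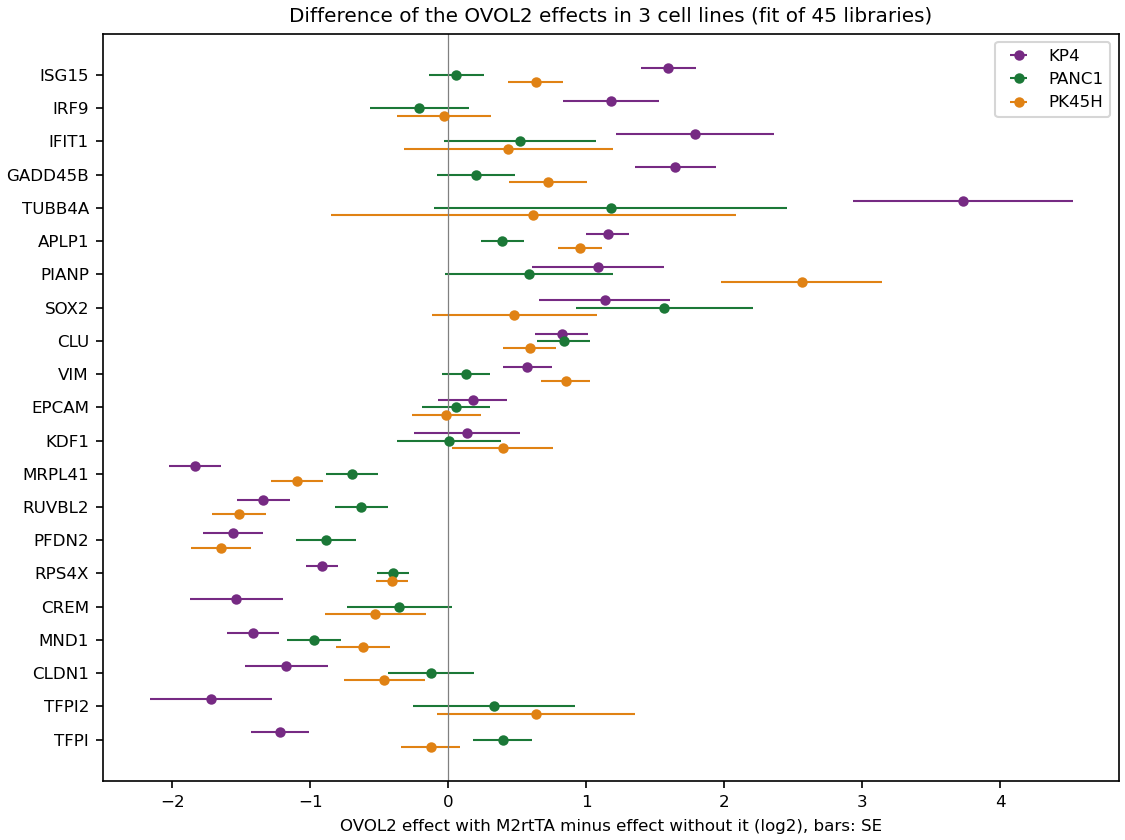
OVOL2 effect with M2rtTA minus the effect without it, on the log2 scale, in KP4, PANC1 and PK45H for 21 genes, from the fit of 45 libraries; points are estimates and bars are SE. ISG15 and TFPI in KP4 stand apart from both other lines, while PFDN2 and RUVBL2 in KP4 lie near their PK45H values.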

How the data were processed

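Total RNA (100 ng per sample) was sequenced by the PLATE-seq approach, a pooled 3′-end method, per the labels' protocols. The whole-number counts per gene were deposited by the authors in 1 table of 25421 genes and 51 libraries, with 0 value columns left unmatched. The submitters' processing notes name kallisto 0.44.0 and GRCh38, and strand and treatment of reads shared by similar genes are not given in the sources used here, so antisense partners and near-identical copies cannot be told apart. Of the gene names, 24193 matched a current symbol.

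The counts were fitted with edgeR 4.0.16 (limma 3.58.1, R 4.3.3) on 15 KP4 libraries in 5 groups (the 4 transduced groups and the untreated cells), after filterByExpr by group and with TMM scaling. The quasi-likelihood test was two-sided. The SE was the absolute log2 fold change divided by the square root of F, and intervals are at 95%. The steps were tested on simulated data. Tried as alternatives were DESeq2 1.42.0, RLE scaling, the fit of unfiltered genes, a minimum mean count of 10, the 12 transduced libraries alone, the replicate number as a block, thinning to the smallest total, each library left out in turn and, chosen after seeing the data, robust dispersion.

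Named genes were those with the smallest p of the difference in each class and direction (8 each way for gained, 6 for lost and weakened together, 3 for strengthened), up to 4 opposite genes, and the 6 kept genes each way with the largest mean effect. They needed 5 CPM in the highest group and no library standing apart from its mates. OVOL2, CDH1, EPCAM, ESRP1, ZEB1, VIM, ISG15 and IRF9 were named whatever their values, and other genes were named after their values were seen. The classes, genes and 25 gene lists were chosen with earlier results of these data known, and 6 further lists after the values of these genes had been seen. Promoters are 250 bases before the start, from RefSeq.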

Additional observations from a re-analysis of the deposited data

Results flagged for a closer look

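Results are gathered here where the OVOL2 effect differed between the arms with and without M2rtTA, or between the lines, by a test of the difference itself (edgeR, Benjamini-Hochberg adjustment). In KP4 195 genes differed between the arms, and 10 genes differed between KP4 and the mean of PANC1 and PK45H. The values below are differences of the log2 effects, with M2rtTA minus without.

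Among gained rises they were APLP1 1.16, ASMTL 1.31, PIANP 1.10, SPSB1 1.00, ENDOG 1.24, RARA 1.62, SEC24A 1.74 and ATP1B2 2.20. Among gained falls they were MRPL41 −1.83, RUVBL2 −1.33, ALDH1A1 −1.41, CREM −1.53, PFDN2 −1.55, RPS4X −0.91, COL5A2 −1.47 and HDGFL3 −1.29. Strengthened genes were ISG15 at 1.60, IRF9 at 1.18, IFIT1 at 1.79, GADD45B at 1.65, MND1 at −1.41, ADGRA3 at −1.93 and HMGN3 at −1.91.

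Rises lost or weakened with M2rtTA were UAP1 at −1.03, TFPI2 at −1.72, S100A11 at −0.91, CLDN1 at −1.16, SURF2 at −0.72 and GADD45A at −1.03. Falls lost or weakened were LOC730098 at 2.85, SOX2 at 1.14, ZKSCAN8 at 1.42, TMEM94 at 1.80, NME4 at 0.81, CLU at 0.83 and VIM at 0.58. Genes with opposite effects were TUBB4A at 3.73, SRPRB at −1.19 and C11orf96 at 5.11, where the value of C11orf96 depends on the fit's prior count because its OVOL2 libraries held 1, 0 and 3 counts.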

How the results depend on the processing

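The precision is that of 3 libraries a group, and genes of low counts have wide intervals. The number of called differences, 195, was 114 with no filter, 453 with DESeq2 and 116 in the 12 transduced libraries alone, and the cause was not tested. Gained genes numbered 90, 322 and 86 under these 3 settings and lost genes 10, 39 and 9. Strengthened genes were 10 with no filter, 66 with DESeq2 and 16 after thinning, and weakened genes were 1 with no filter and 1 in the 12 libraries. DESeq2 gave 8 opposite genes, 12 genes with a called difference but neither effect called, 15 calls of M2rtTA in mCherry cells and 36 calls of KP4 against the other lines. Kept genes were 217 with no filter. With robust dispersion, chosen after seeing the data, 277 differences were called.

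Leaving out 1 of the 12 libraries gave 78 to 177 called differences, 59 to 142 gained, 6 to 28 strengthened, 0 to 2 weakened, 4 to 18 lost, 1 to 5 opposite and 174 to 280 kept genes. Calls fell to 96 and 78 without mCherry replicates 2 and 3, to 99 and 118 without mCherry + M2rtTA replicates 1 and 2, to 117, 118 and 84 without OVOL2 replicates 1, 2 and 3, and to 98 and 127 without OVOL2 + M2rtTA replicates 2 and 3. The effect was called for 471 to 886 genes without M2rtTA, lowest without OVOL2 replicate 2, and for 2400 to 2984 with it. M2rtTA gave 0 to 1 calls in mCherry cells and 669 to 1174 in OVOL2 cells. Genes with a called difference but neither effect called numbered 0 to 1. Calls of KP4 against the other lines ran from 0 to 22.

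With the replicate number as a block, 112 differences were called, 108 of them among the 195, with 91 gained, 12 strengthened, 0 weakened, 8 lost and 1 opposite gene. The numbers were not used to pair the libraries: over 18 pairs with the same number the correlation of deviations was −0.232 to 0.223, and 2 of 12 libraries correlated best with their own number.

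Among the named genes, the sign of the difference changed for 10 whose difference was not called. After thinning, ARHGEF35 was at 0.13, ESRP1 at 0.19, HSPB11 at 0.058, KDF1 at −0.14 and SRD5A3 at −0.068. With 1 library left out the differences ran from −0.27 to 0.20 for ARHGEF35, −0.27 to 0.68 for CDH1, −0.26 to 0.012 for EID1, −0.048 to 0.32 for EPCAM, −0.96 to 0.028 for ESRP1, −0.23 to 0.19 for ESRP2, −0.50 to 0.047 for HEG1, −0.21 to 0.091 for HSPB11, −0.097 to 0.49 for KDF1 and −0.13 to 0.16 for SRD5A3.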

Other observations

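Further genes that gained a fall, picked after their values were seen from those called in all 12 fits that left out 1 library, belong to nucleotide salvage, lipid handling and translation control. ADA, adenosine deaminase, was at 9.99 to 12.8 CPM with mCherry, 8.18 to 13.7 with OVOL2, 12.7 to 15.7 with mCherry + M2rtTA and 3.09 to 4.48 with OVOL2 + M2rtTA, with a difference of −1.86 (SE 0.30, adjusted p = 0.0112 in edgeR). The last group lay below the other 3, which overlapped in part. FABP5, a fatty acid carrier with many processed copies in the genome, was at 359 to 369.8, 252 to 278, 295 to 343 and 83.6 to 121 CPM in the same order, with a difference of −1.26 (SE 0.19, adjusted p = 0.00961). EIF4EBP1, a repressor of cap-dependent translation, was at 81.05 to 84.2, 55.7 to 73.3, 79.8 to 106 and 24.96 to 29.2 CPM, with a difference of −1.36 (SE 0.22, adjusted p = 0.0112). For FABP5 and EIF4EBP1 the OVOL2 libraries without M2rtTA already lay below the mCherry libraries, an effect that did not pass the threshold.

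A few genes were very high in the same KP4 libraries of different groups. In the OVOL2 group RNASEH1 was at 25.8, 700.0 and 178 CPM, INPP5F at 36.9, 909 and 509, BECN1 at 13.8, 160.3 and 108 and SLC13A1 at 0.922, 217 and 32.7 for replicates 1, 2 and 3. In mCherry + M2rtTA replicate 1 BECN1 was at 545 CPM and SLC13A1 at 1194 CPM, against 17.2 and 21.6 CPM for BECN1 in the other two. Of all tested genes 295 had a library at least 5 times the next one of its group (on CPM plus 1), and of the 195 genes 1 did, SLC13A1.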
